A study of Mus musculus with 12 samples.

Results

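The comparison described here asks whether loss of Tet3 was accompanied by the same or by different transcript levels at the dorsal and the ventral end of the mouse hippocampus. It used all 12 of the 12 samples of the series, placed in 4 groups of 3 by the tissue and genotype given in their labels: dorsal control, dorsal cKO, ventral control and ventral cKO. The quantity examined for each gene was the ventral genotype effect minus the dorsal genotype effect, where a genotype effect is the log2 fold change of conditional knockout (cKO) over control. A value above 0 therefore means that the cKO to control ratio was higher in the ventral than in the dorsal hippocampus. It is called the regional difference below. The cKO mice (Tet3fl/fl; Camk2a-CreERT2) carried floxed Tet3 on both alleles and a Cre recombinase that is activated by tamoxifen and driven by the promoter of Camk2a, a gene of excitatory neurons in the forebrain. Control mice had the same floxed alleles and no Cre, so floxed Tet3 was shared by all groups and Cre was present only in the cKO groups. The labels of all 12 samples give tamoxifen (50 mg/kg, started at 6 weeks, given 2 times daily in a pair of 5-day courses 7 days apart) and the age at dissection as adult. The floxed line was C57BL/6N and the Cre line B6;129S6. Dissected tissue also holds interneurons, glia, vessels and ependyma, which this promoter is not meant to target.

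TET3 is one of the dioxygenases that oxidise 5-methylcytosine in DNA, mostly at CG dinucleotides, a step toward removal of the methyl group. The dorsal hippocampus is known mainly for its part in spatial memory and the ventral hippocampus for its part in emotional and stress-related behaviour, and the gene programmes of excitatory neurons differ along this axis. Libraries were made with a 3′ kit, so that 1 read stands for the tail end of 1 polyadenylated RNA, and levels are given as CPM, counts scaled to a common library size after TMM normalisation. DNA methylation was not measured.

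The labelled tissue was checked against marker genes. Slc17a7, the vesicular glutamate transporter of hippocampal excitatory neurons, was at 1117 to 1810 CPM in the 12 samples. Lct, a marker of dorsal granule cells, was at 14.1 to 25.1 CPM in the 6 dorsal and 2.40 to 8.53 CPM in the 6 ventral samples. Dcn, a matrix proteoglycan gene high at the ventral pole, was at 16.9 to 36.1 against 98.3 to 173.9 CPM. Neither range overlapped between the regions. Markers of the choroid plexus, the epithelium of the ventricles next to the hippocampus, varied within the dorsal groups and were lower in every ventral cKO sample than in the ventral controls. They took 0.534% of counts in dorsal control 49 and 0.34% in dorsal cKO 64, against 0.031 to 0.052% in the other dorsal samples. In the ventral hippocampus they took 0.353 to 0.494% in the controls and 0.279% in cKO 63, against 0.026 and 0.022% in cKO samples 40 and 64. Results that rest on these samples are given below with and without dorsal control 49, dorsal cKO 64 and ventral cKO 63. Sample totals ran from 5116935 counts in dorsal cKO 64 to 15900323 in ventral control 41.

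No gene had a regional difference that passed the test after adjustment over all 16414 genes (edgeR quasi-likelihood test, 0 called, or 0% of the genes; smallest Benjamini-Hochberg adjusted p = 0.125). On the same counts limma-voom called 0 and DESeq2 34, which are described below. At an unadjusted p under 0.05 there were 1307 genes, or 7.96% of those tested, of which 822 (5.01%) lay above 0 and 485 (2.95%) below. At that level the same fit gave 668 genes (4.07%) for the dorsal genotype effect, 281 higher (1.71%) and 387 lower (2.36%) in cKO. It gave 1315 (8.01%) for the ventral effect, 758 higher (4.62%) and 557 lower (3.39%), and 712 (4.34%) for the effect averaged over both regions, 362 higher (2.21%) and 350 lower (2.13%). None of these 3 effects had a called gene (smallest adjusted p = 0.846, 0.0528 and 0.999, edgeR). The median SE was 0.238 for a regional difference and 0.119 for an average effect, both on the log2 scale.

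The sign of the effects differed more often than it agreed among genes with an unadjusted p under 0.05 in each region. There were 79 such genes (0.481% of those tested) with opposite signs and 14 (0.0853%) with the same sign. Of the 79, 69 had a lower mean in dorsal cKO and a higher mean in ventral cKO, and 10 had the reverse. Of the 14, 11 were higher and 3 lower in cKO in both regions. The dorsal and ventral effects share no libraries, although the numbers 40, 41, 49 and 64 occur in the sample titles of both regions. Across all 16414 genes the 2 effects were uncorrelated (Pearson r = 0.006), and across the 9483 genes of at least 10 CPM r was -0.124. These are correlations across genes, which share samples and are not independent replicates.

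**Figure D1:**
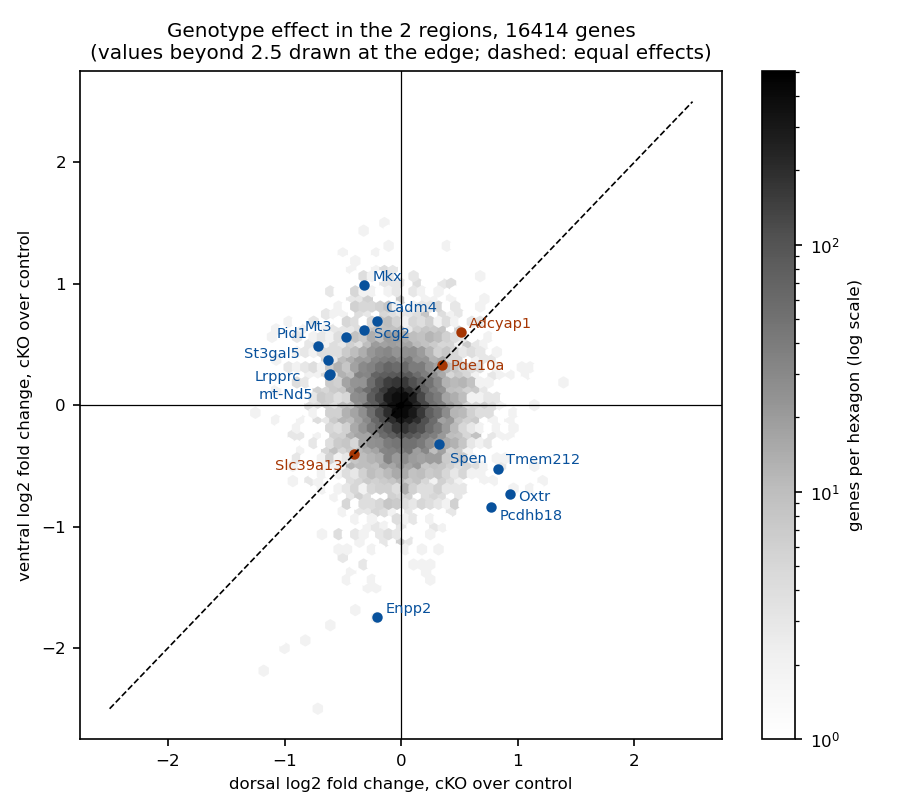
Genotype effect in the dorsal (horizontal axis) and ventral (vertical axis) hippocampus, each a log2 fold change of cKO over control, for 16414 genes. Grey hexagons are shaded by the number of genes on a log scale. Blue points are genes with a low unadjusted p for the regional difference (edgeR, none called) or of lists described in the text. Orange points are genes with like effects in both regions, and the dashed line marks equal effects. Values beyond 2.5 are drawn at the edge. Most genes lie near 0 on both axes. Pid1, St3gal5, Lrpprc and mt-Nd5 lie to the left and above 0, Oxtr and Pcdhb18 to the right and below 0.

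The lead genes, 12 in each direction with the lowest p, all had effects of opposite sign in the 2 regions. In the 12 with a regional difference above 0 the dorsal effect was below 0 and the ventral effect above 0, and in the 12 below 0 the order was reversed. Choosing genes by the lowest p of the difference between the 2 effects favours opposite signs, so this describes the choice and is no finding. Their unadjusted p values went up to 0.00312 and their edgeR adjusted p values from 0.125 to 0.397, so each is described here by its values and none as a gene that changed. Promoter sequences of 3 lead genes above 0 and 1 below 0 are shown first, because TET3 acts at CG dinucleotides and these promoters differ in their number of CG. Each run holds 300 bases, from 250 before to 50 after the start, 5′ to 3′ along the gene, from RefSeq on GRCm38.p6, with every CG in capitals. CG reads the same on both strands and its occurrences do not overlap.
Cadm4, chr7:24481773-24482072, plus strand: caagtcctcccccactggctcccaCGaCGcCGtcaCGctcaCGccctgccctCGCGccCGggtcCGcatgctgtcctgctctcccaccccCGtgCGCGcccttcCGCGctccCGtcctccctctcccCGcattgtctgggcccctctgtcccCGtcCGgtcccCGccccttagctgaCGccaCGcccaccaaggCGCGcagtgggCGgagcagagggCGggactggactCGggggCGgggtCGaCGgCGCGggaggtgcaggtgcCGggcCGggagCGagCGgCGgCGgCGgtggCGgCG
Lrpprc, chr17:84790737-84791036, minus strand: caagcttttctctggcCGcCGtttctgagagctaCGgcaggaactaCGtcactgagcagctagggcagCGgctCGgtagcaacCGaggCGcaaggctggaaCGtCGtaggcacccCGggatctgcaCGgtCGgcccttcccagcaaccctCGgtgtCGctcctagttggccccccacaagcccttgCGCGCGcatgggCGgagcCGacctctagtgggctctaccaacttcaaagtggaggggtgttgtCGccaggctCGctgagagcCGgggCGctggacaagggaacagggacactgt
Mt3, chr8:94152357-94152656, plus strand: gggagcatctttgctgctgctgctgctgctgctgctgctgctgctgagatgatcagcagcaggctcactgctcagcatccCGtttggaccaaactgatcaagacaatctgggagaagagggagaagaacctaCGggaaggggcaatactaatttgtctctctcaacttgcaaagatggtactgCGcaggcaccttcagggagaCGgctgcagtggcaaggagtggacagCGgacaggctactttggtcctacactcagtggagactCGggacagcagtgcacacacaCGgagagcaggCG
Oxtr, chr6:112489776-112490075, minus strand: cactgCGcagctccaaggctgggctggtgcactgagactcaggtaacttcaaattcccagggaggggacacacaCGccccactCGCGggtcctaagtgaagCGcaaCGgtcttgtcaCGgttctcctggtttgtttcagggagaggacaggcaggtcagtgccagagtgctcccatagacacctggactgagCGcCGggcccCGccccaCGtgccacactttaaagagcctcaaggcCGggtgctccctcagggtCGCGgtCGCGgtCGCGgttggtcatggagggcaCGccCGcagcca
The Cadm4 window holds 40 CG, a number reached by 1027 (3.8%) of 27025 promoters of the same length used here. The Lrpprc window holds 24, reached by 5405, the Oxtr window 20, reached by 7239, and the Mt3 window 8, reached by 13250. The median promoter holds 7, and 94.2% hold at least 1. The windows describe sequence only, since methylation was not measured and no effect was tied to them.

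Cadm4 had the lowest p of all genes. It encodes an adhesion molecule of the immunoglobulin superfamily found at contacts of axons and glia, and lies on chromosome 7 from 24482023 to 24504539 (ENSMUSG00000054793, plus strand, GRCm38). Dorsal controls 41, 49 and 71 had 74.0, 65.9 and 71.7 CPM, and dorsal cKO samples 40, 43 and 64 had 56.5, 58.2 and 69.1 CPM. Ventral controls 41, 49 and 50 had 41.7, 42.1 and 35.4 CPM, and ventral cKO samples 40, 63 and 64 had 64.8, 61.9 and 67.0 CPM; this order of samples is kept for all genes below. The ventral cKO samples thus lay above every ventral control and inside the range of the dorsal samples, while the dorsal groups overlapped. The dorsal effect was -0.21 ± 0.10 and the ventral effect 0.70 ± 0.10, which gives a regional difference of 0.91 ± 0.14 (SE, n = 3 per group; edgeR adjusted p = 0.125). It ranged from 0.84 to 1.01 with single samples left out, and passed at an adjusted p of 0.00759 (edgeR) without dorsal control 49, dorsal cKO 64 and ventral cKO 63, against an adjusted p of 0.354 (edgeR) with the choroid plexus score as a covariate.

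Mkx, which encodes the Mohawk homeobox factor, had the same shape at a lower level. It was at 14.7, 11.5 and 15.6 CPM in the dorsal controls against 11.6, 9.002 and 13.4 CPM in dorsal cKO, and at 6.83, 5.56 and 5.52 CPM in the ventral controls against 11.1, 14.2 and 10.9 CPM in ventral cKO. The dorsal groups overlapped, and the ventral cKO samples lay above the ventral controls and within the dorsal range. Its regional difference came to 1.31 ± 0.26. Hipk4, a kinase of the homeodomain-interacting family (1.13 ± 0.24), and, outside the 24, Rgs20, a regulator of G-protein signalling (1.17 ± 0.26), also had ventral cKO samples that all lay above the ventral controls and dorsal groups that overlapped.

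Other lead genes had every dorsal cKO sample below the dorsal controls. Lrpprc, whose product binds and stabilises messenger RNAs of the mitochondrial genome (chromosome 17, 84705247 to 84790789, minus strand), was at 234.98, 199.03 and 263.1 CPM in the dorsal controls against 163.7, 158.4 and 131.1 CPM in dorsal cKO. Ventrally it stood at 218.5, 204.8 and 210.9 CPM in the controls against 222.8, 306.6 and 224.4 CPM in cKO. All dorsal cKO samples were below the dorsal controls and all ventral cKO samples above the ventral controls, the latter by a narrow margin except in cKO 63. The regional difference was 0.86 ± 0.18, made of -0.62 ± 0.13 dorsal and 0.25 ± 0.12 ventral, and was 0.69 without ventral cKO 63.

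St3gal5, the synthase of the ganglioside GM3, was at 344.6, 265.3 and 364.0 CPM in the dorsal controls against 247.0, 209.1 and 171.5 CPM in cKO, and at 274.9, 257.9 and 253.8 CPM in the ventral controls against 294.6, 431.2 and 293.6 CPM in cKO. Neither region's groups overlapped, and ventral cKO 63 stood well above the other ventral samples. Its regional difference came to 1.002 ± 0.22. Usf2, a transcription factor that binds E-boxes (0.89 ± 0.19), was ordered in the same way in both regions, with ventral cKO 63 again the highest of the ventral samples at 686.8 CPM.

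Scg2, the precursor of secretoneurin and a protein of dense-core vesicles, was at 429.5, 394.0 and 445.9 CPM in the dorsal controls against 370.0, 325.6 and 321.4 CPM in cKO, and at 294.8, 284.0 and 173.8 CPM in the ventral controls against 425.1, 376.5 and 358.8 CPM in cKO. The groups did not overlap in either region, and ventral control 50 was far below the other 2 controls. The regional difference was 0.94 ± 0.20, and 0.75 without ventral control 50.

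Mt3, the brain metallothionein that binds zinc and copper (chromosome 8, 94152607 to 94154146, plus strand), was at 203.8, 165.3 and 217.4 CPM in the dorsal controls against 154.3, 135.1 and 133.4 CPM in dorsal cKO. Ventrally, controls had 114.4, 146.8 and 96.4 CPM against 203.6, 177.9 and 143.4 CPM in cKO. The dorsal groups did not overlap, while ventral control 49 and ventral cKO 64 were alike. Its regional difference came to 1.03 ± 0.21, made of -0.47 ± 0.15 and 0.56 ± 0.15. Pid1, an adaptor protein with a phosphotyrosine interaction domain that modulates insulin signalling in fat cells, had a regional difference of 1.19 ± 0.24 (-0.71 ± 0.17 dorsal, 0.48 ± 0.17 ventral), with no overlap in either region. Without dorsal control 71, the highest of its group at 128.1 CPM, the Pid1 difference was 0.96. The other 3 lead genes above 0, the pseudogene Gm2830, the predicted gene Gm10800 and Zeb2os, which is antisense to Zeb2, can share reads with copies or with the opposite strand, and their values are uncertain.

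Below 0, Oxtr had the lowest p. It encodes the oxytocin receptor, which is expressed in hippocampal interneurons and in pyramidal cells of CA2 and CA3, and lies on chromosome 6 from 112473683 to 112489943 (minus strand). Oxtr was at 1.25, 2.05 and 2.10 CPM in the dorsal controls against 2.70, 3.75 and 4.16 CPM in dorsal cKO, and at 10.2, 7.37 and 9.91 CPM in the ventral controls against 5.65, 5.70 and 5.24 CPM in ventral cKO. Every dorsal cKO sample lay above the dorsal controls and every ventral cKO sample below the ventral controls, so the ventral to dorsal ratio of the receptor was smaller in cKO. The regional difference was -1.67 ± 0.34 (0.93 ± 0.27 dorsal, -0.74 ± 0.21 ventral; edgeR adjusted p = 0.325), and -1.84 to -1.47 with single samples left out. In bulk tissue fewer cells of a type and less RNA per cell cannot be told apart, here and in all results below.

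Spen, a transcriptional corepressor, was at 34.4, 36.2 and 33.3 CPM in the dorsal controls against 38.3, 44.7 and 48.2 CPM in cKO, and at 40.8, 40.2 and 33.1 CPM in the ventral controls against 29.7, 28.6 and 33.3 CPM in cKO. The dorsal groups did not overlap, and ventral cKO 64 was at the level of ventral control 50. Its regional difference came to -0.65 ± 0.16. Pcdhb18, a clustered protocadherin of the beta group, was at 1.94, 1.40 and 2.10 CPM in the dorsal controls against 3.05, 3.47 and 2.64 CPM in cKO, and at 2.84, 2.92 and 2.88 CPM in the ventral controls against 2.10, 1.11 and 1.498 CPM in cKO. Its groups did not overlap in either region (-1.61 ± 0.41). Nufip2, an RNA-binding partner of the fragile X protein, also had no overlap in either region (-0.48 ± 0.13).

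Pml, the organiser of nuclear bodies, had a regional difference of -1.37 ± 0.40 and reached at most 3.92 CPM in any sample. Ssx2ip, a centrosomal protein, was at -0.56 ± 0.15, and Dopey1, which acts in membrane traffic, at -0.64 ± 0.18. For Dopey1 the dorsal effect (0.56 ± 0.13) made up most of the value and the ventral groups overlapped. Echdc3 (-3.62 ± 0.89) reached at most 2.46 CPM in any sample, so its value rests on few counts. The remaining 4 of the 12 were predicted gene models, among which the pseudogene Gm17786 was highest in dorsal cKO 40 (11.1 CPM, against 0.28 to 1.70 CPM in the other 11 samples).

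**Figure D2:**
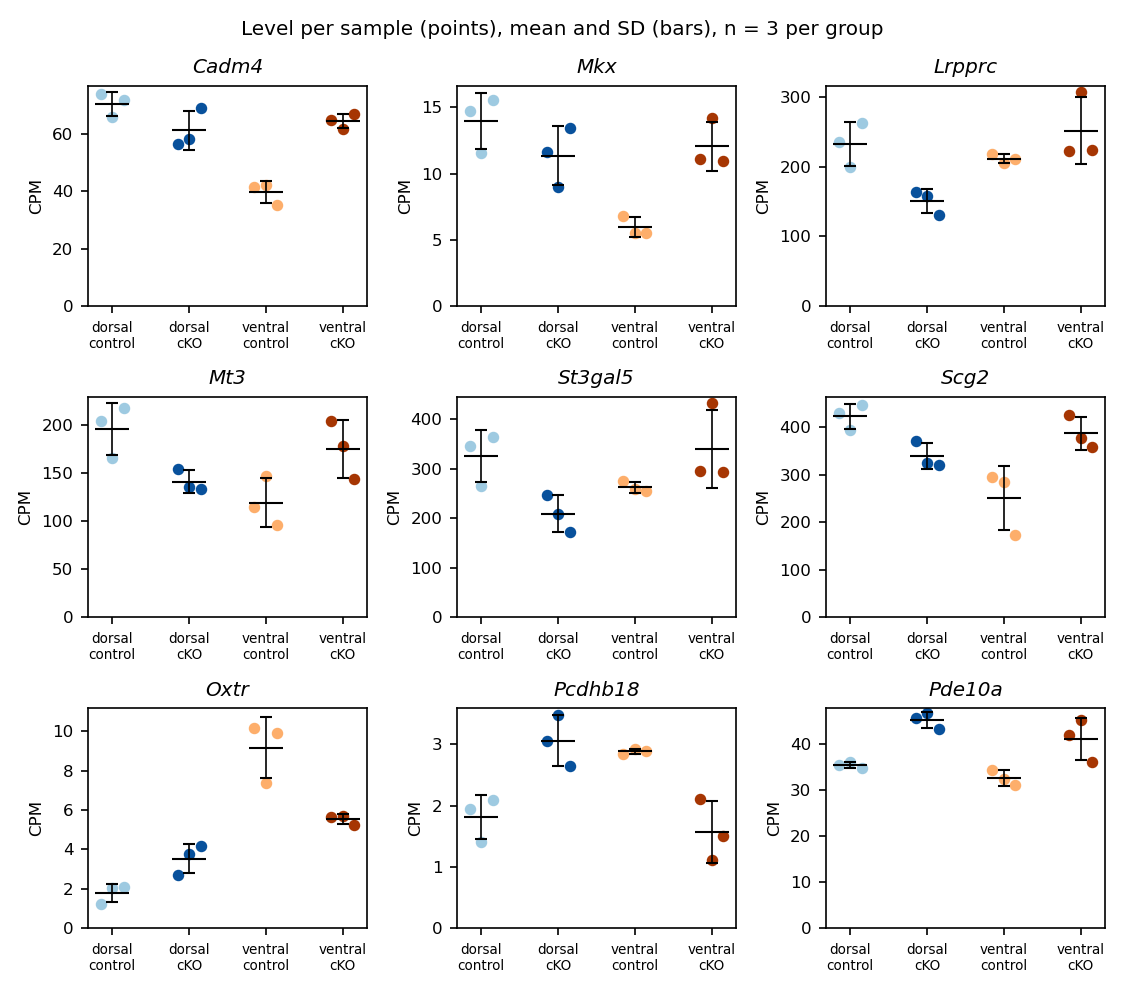
Level in CPM (vertical axes, from 0) of 9 genes in the dorsal control, dorsal cKO, ventral control and ventral cKO samples. Points are samples, and the bars are the mean and SD of 3. Cadm4 and Mkx are lowest in the ventral controls, Lrpprc, Mt3, St3gal5 and Scg2 are lower in dorsal and higher in ventral cKO, Oxtr and Pcdhb18 show the reverse order, and Pde10a is higher in cKO in both regions.

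DESeq2, run on the same counts, called 34 regional differences, all above 0 and all with a dorsal effect below 0 and a ventral effect above 0. Its filter on low counts, whose cutoff is by default chosen for the number of calls in the contrast, left an adjusted p to 2412 genes. The least abundant of them was at 89.7 CPM, and the 34 are 1.41% of the 2412. Below 0 DESeq2 called 0 (0%). Of the 24 lead genes 6 were among the 2412, and Cadm4, Mkx and Oxtr were not. The called genes had a median of 359.6 CPM against 14.8 CPM over all tested genes. Genes removed by the filter could not be called, so the filter fixes much of that contrast. The DESeq2 differences of the called genes were 0.48 to 1.03 on the log2 scale. All 34 had an unadjusted edgeR p under 0.05, which comes from the same counts and is no separate support. Genes named from this set other than the lead genes were chosen after their values were seen.

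Vamp2 and Syp, both proteins of synaptic vesicles, were among the 34. Vamp2, the synaptic vesicle SNARE, was at 844.3, 670.7 and 1062 CPM in the dorsal controls against 625.9, 610.2 and 618.7 CPM in dorsal cKO, and at 655.5, 737.5 and 576.8 CPM in the ventral controls against 719.4, 961.2 and 835.5 CPM in ventral cKO. The dorsal cKO samples were below all dorsal controls and nearly equal to each other, and the ventral groups overlapped by ventral cKO 40 and control 49. Its regional difference was 0.83 ± 0.20 (DESeq2 adjusted p = 0.0111). Syp, the vesicle protein synaptophysin, was at 0.74 ± 0.20 (DESeq2 adjusted p = 0.0473), with groups that overlapped in both regions. The neuronal enolase Eno2 (0.51 ± 0.14), the actin-binding kinase substrate Marcks (0.65 ± 0.16), the tubulin Tubb2a (0.54 ± 0.15) and the ephrin receptor Ephb3 (0.65 ± 0.18) were further members. Mir124a-1hg, the host transcript of a neuronal microRNA, was at 0.66 ± 0.19. The set also held the clock-linked factor Tef (0.55 ± 0.15), the autophagy kinase Ulk1 (0.48 ± 0.13), the deubiquitinase Usp11 (0.65 ± 0.16), the splicing factor Prpf19 (0.47 ± 0.12) and Thoc3 of the messenger RNA export complex (0.60 ± 0.13).

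The authors' deposited tables, one per region, allow the same question to be put to their own fit. At a false discovery rate under 0.05 the authors' deposited table listed 166 of 29407 genes for the dorsal hippocampus, 41 higher and 125 lower in cKO. For the ventral hippocampus the authors' deposited table listed 543 of 29146 genes, 287 higher and 256 lower. Both lists of the authors' deposited tables held 25 genes, 15.1% of the dorsal and 4.6% of the ventral list, out of 26787 genes present in both tables. Of these 25, 23 were lower in dorsal and higher in ventral cKO, 1 (Nufip2) had the reverse order and 1 (Pde10a) was higher in both, per the authors' deposited tables. The 23 include Syp (-0.355 and 0.435 in the authors' deposited tables), Scg2 (-0.30 and 0.62), Pid1 (-0.692 and 0.484) and Mt3 (-0.467 and 0.577). Fewer genes carried the authors' own mark of up or down. The authors' deposited tables marked 20 dorsal and 143 ventral genes, and 0 were marked in both. Those tables hold 1 column per sequencing run and a likelihood ratio per gene, and the authors' deposited tables do not compare the regions. If runs entered that fit as separate libraries, runs of 1 sample counted as replicates, which was not tested. In the fit used here, runs as separate libraries gave 245 dorsal and 976 ventral calls, against 0 and 0 on summed counts. The deposited lists rest on the same 12 samples and are no separate support.

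Few genes had like effects in both regions. Pde10a, a phosphodiesterase of cyclic nucleotides, was at 35.4, 36.0 and 34.8 CPM in the dorsal controls against 45.5, 46.7 and 43.3 CPM in cKO, and at 34.4, 32.4 and 31.0 CPM in the ventral controls against 41.9, 45.0 and 36.0 CPM in cKO. Both cKO groups lay above their controls, and the average effect was 0.34 ± 0.07. Adcyap1, which encodes the neuropeptide PACAP, was at 5.02, 5.82 and 6.29 CPM in the dorsal controls against 9.07, 7.41 and 7.935 CPM in cKO, and at 2.21, 2.78 and 2.63 CPM in the ventral controls against 3.77, 3.89 and 3.75 CPM in cKO. The groups did not overlap in either region (average effect 0.56 ± 0.14). Slc39a13, a zinc transporter, was lower in both cKO groups without overlap (average effect -0.40 ± 0.09). The regional differences of these 3 genes lay close to 0 (-0.03 ± 0.14, 0.09 ± 0.28 and 0.005 ± 0.19), and their average effects did not pass the test over all genes (smallest edgeR adjusted p of any gene = 0.999).

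Gene groups were described with 25 lists of cell types, hippocampal subfields and cell functions, beside the same values over all 16414 genes, whose median regional difference was -0.006. The 15 transcripts of the mitochondrial genome, which encodes subunits of the respiratory chain and the mitochondrial ribosomal RNAs, had the highest median, 0.585 (dorsal effect -0.457, ventral effect 0.206). All 15 of 15 listed members were tested and had a regional difference above 0; 11 had an unadjusted p under 0.05 against a background of 5.01% for that direction, 0 passed edgeR's adjusted test and 2 were DESeq2 calls. The members sit on 1 genome and are cut from shared precursors, so their values are not separate pieces of evidence. Across the members the value ran from 0.153 for the ribosomal RNA mt-Rnr2 to 1.193 for mt-Nd4l.

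mt-Nd5 (complex I) was at 792.1, 604.9 and 919.5 CPM in the dorsal controls against 543.4, 464.0 and 506.7 CPM in dorsal cKO, and at 503.4, 656.1 and 538.0 CPM in the ventral controls against 760.1, 778.8 and 489.3 CPM in ventral cKO. The dorsal cKO samples lay below every dorsal control, while ventral cKO samples 40 and 63 lay above the ventral controls and cKO 64 below them. Its regional difference was 0.87 ± 0.23 (DESeq2 adjusted p = 0.0251). mt-Nd6 (0.90 ± 0.24), mt-Co1 of cytochrome oxidase (0.66 ± 0.19) and mt-Nd2 of complex I (0.65 ± 0.20) also had every dorsal cKO sample below the dorsal controls. The ventral groups of these genes overlapped. mt-Nd6 and mt-Nd5 lie on opposite strands and overlap only at their tail ends (13552 to 13565), where reads cannot be told apart without strand. Each sample was also given a list score, which averages the members' log2 CPM and subtracts the mean of that region's controls. By this score the dorsal cKO samples were at -0.366, -0.409 and -0.523 and the dorsal controls at 0.035, -0.226 and 0.191. The ventral cKO samples were at 0.458, 0.323 and -0.136 and the ventral controls at 0.061, 0.131 and -0.192. The ventral side of the difference therefore rests on cKO samples 40 and 63. Mitochondrial transcripts took 3.34% of counts in ventral cKO 64, the lowest share of the 12 samples, and their part in the other results was not tested.

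Nuclear genes of the same chain had smaller values. Of 77 tested nuclear genes of oxidative phosphorylation, 15 lay above 0 and 2 below at an unadjusted p under 0.05, against 5.01 and 2.95% of all genes. Their median regional difference was 0.069. It was 0.048 without dorsal control 71, 0.106 without ventral control 50 and 0.003 in the lowest of all alternatives. Ndufa5 of complex I was at 0.58 ± 0.15 and Ndufb3 at 0.56 ± 0.16 (DESeq2 adjusted p = 0.0349 and 0.0473), with ventral cKO samples all above the ventral controls for both genes. Sdhd of complex II had 1.76 ± 0.54, but its ventral controls were spread from 3.64 to 28.6 CPM. Of 77 cytosolic ribosomal protein genes, 65 had a regional difference above 0. The median was 0.143, with 0.118 without ventral control 41, 0.217 without ventral control 50 and 0.077 in the lowest of all alternatives. At an unadjusted p under 0.05, 10 lay above and 1 below 0, against 5.01 and 2.95% of all genes. Rpl4 (0.55 ± 0.16), Rps24 (0.53 ± 0.16) and Rps23 (0.71 ± 0.22) of the ribosome were among the 10, as was Rps6 (1.18 ± 0.34), which was at 3.01 to 8.69 CPM. The ribosomal genes took 2.295 to 2.676% of counts in all samples.

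**Figure D3:**
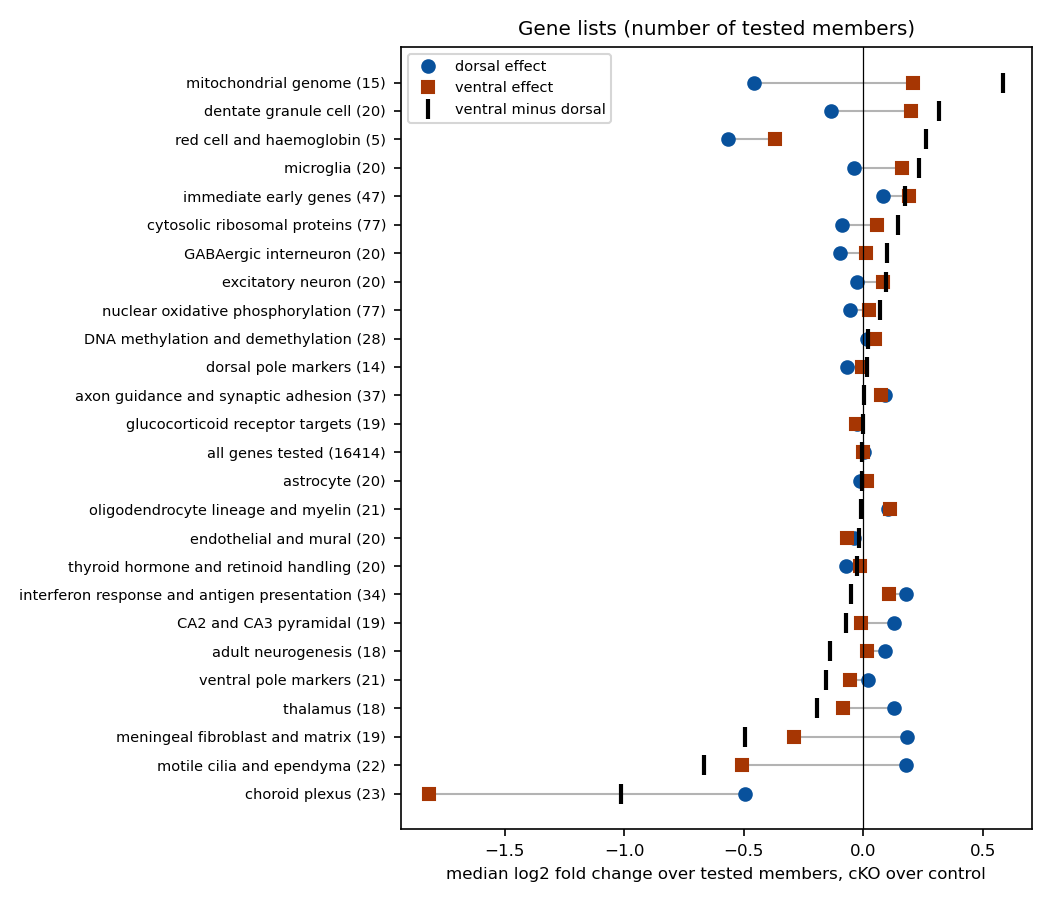
Median log2 fold change of cKO over control (horizontal axis) over the tested members of each gene list (rows, with the number of members) in the dorsal (circles) and ventral (squares) hippocampus, with the median regional difference as a vertical tick. The mitochondrial genome list lies at the upper end (0.585) and the choroid plexus list at the lower end (-1.012); all genes together have a median of -0.006.

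Lists of neurons had medians below the 0.585 of the mitochondrial genome. The dentate granule cell list, at 0.317, was the next highest of the 25 lists. Of 20 excitatory neuron markers, 15 had a regional difference above 0 (median 0.096), and 2 lay above and 1 below 0 at an unadjusted p under 0.05 (5.01 and 2.95% of all genes). Camk2a, the calcium-dependent kinase whose promoter drives Cre, was at 1866, 1344 and 1943 CPM in the dorsal controls against 1201, 1573 and 1358 CPM in cKO, and at 1327, 1504 and 1238 CPM in the ventral controls against 1762, 1974 and 1320 CPM in cKO. Its groups overlapped in both regions (0.63 ± 0.22). Slc17a7 was at 0.46 ± 0.18, and the NMDA receptor subunit Grin1 at -0.45 ± 0.20. Of 20 dentate granule cell markers, 16 lay above 0 (median 0.317), 3 of them at an unadjusted p under 0.05 (5.01% of all genes). The median was 0.15 without ventral cKO 63 and 0.486 without ventral cKO 64.

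Tdo2, a tryptophan dioxygenase expressed in granule cells, led the dentate list at 2.97, 2.80 and 3.31 CPM in the dorsal controls against 1.83, 2.63 and 1.70 CPM in cKO, and 1.39, 1.81 and 1.63 CPM in the ventral controls against 4.10, 4.31 and 2.85 CPM in cKO. The groups did not overlap in either region (1.78 ± 0.40). The other 2 dentate markers at that level were the cytoskeletal gene Ablim3 (0.67 ± 0.28, and 0.41 without ventral cKO 63) and the transcription factor Rfx3 (0.66 ± 0.29), the latter at 0.32 without ventral cKO 40, which was its highest sample.

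Immediate early genes, which neurons induce on firing, had a median regional difference of 0.174 over 47 of 48 listed members (dorsal effect 0.081, ventral effect 0.192), with 6 above and 0 below 0 at an unadjusted p under 0.05 (5.01 and 2.95% of all genes). The median was 0.101 without dorsal control 49. Egr1, a zinc finger factor chosen after its values were seen, was at 584.7, 730.4 and 899.3 CPM in the dorsal controls against 965.2, 650.5 and 828.3 CPM in cKO, and at 279.5, 421.2 and 332.5 CPM in the ventral controls against 491.5, 540.6 and 590.1 CPM in cKO. The dorsal groups overlapped and the ventral groups did not (0.51 ± 0.23, and 0.335 without dorsal control 71). Dusp6, a phosphatase that limits ERK signalling (0.58 ± 0.15), had no overlap in either region, and Klf6, a zinc finger factor (0.39 ± 0.12), had no overlap in the ventral and overlap in the dorsal groups. Fos (0.88 ± 0.58) and Arc (0.34 ± 0.32), also chosen after their values were seen, had regional differences smaller than their SE times 2.

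Of the axon guidance and synaptic adhesion genes, to which Cadm4 belongs, 2 of 37 lay above and 3 below 0 at an unadjusted p under 0.05 (median 0.004), which is near the 5.01 and 2.95% of all genes and no result about the group. Besides Cadm4 these were Sema7a, a membrane-bound semaphorin (0.56 ± 0.16), and below 0 the guidance receptor Robo1 (-0.69 ± 0.28), the ephrin Efna1 (-0.66 ± 0.31) and the netrin-like Ntng1 (-0.34 ± 0.16). Of 20 microglia markers 17 lay above 0 (median 0.231), with 2 above and 0 below at an unadjusted p under 0.05 (5.01 and 2.95% of all genes). The complement gene C1qa was at 0.61 ± 0.20 and Laptm5, a lysosomal membrane protein, at 0.41 ± 0.15, while the purinergic receptor P2ry13 was at -0.69 ± 0.34. The microglia median was 0.105 without ventral control 41 and -0.063 from run 1 alone. Markers of astrocytes, oligodendrocytes and vessels had medians of -0.006, -0.012 and -0.02, and those of the dorsal and ventral pole 0.015 and -0.156.

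The targeted gene and its relatives had regional differences smaller than their SE times 2. Tet3 was at 29.9, 37.2 and 33.8 CPM in the dorsal controls against 32.3, 41.8 and 40.4 CPM in cKO, and at 34.7, 30.3 and 23.6 CPM in the ventral controls against 35.0, 25.3 and 32.2 CPM in cKO. The groups overlapped in both regions (-0.12 ± 0.22). Where the floxed exons lie is not given in the sources used here. Since 3′ reads may also come from recombined alleles, these levels do not check the deletion and cannot show whether recombination was alike in both regions. Tet1 was at -0.34 ± 0.23 and Tet2 at -0.12 ± 0.15. Of 28 genes that write, read or remove DNA methylation, 0 had an unadjusted p under 0.05, against 7.96% of all genes in either direction. With 28 genes a count of 0 is no result about the group. Their median was 0.021, or -0.041 when scaled by library totals alone. The lowest p belonged to Mbd5, a methyl-CpG-binding domain protein (0.38 ± 0.19).

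**Figure D4:**
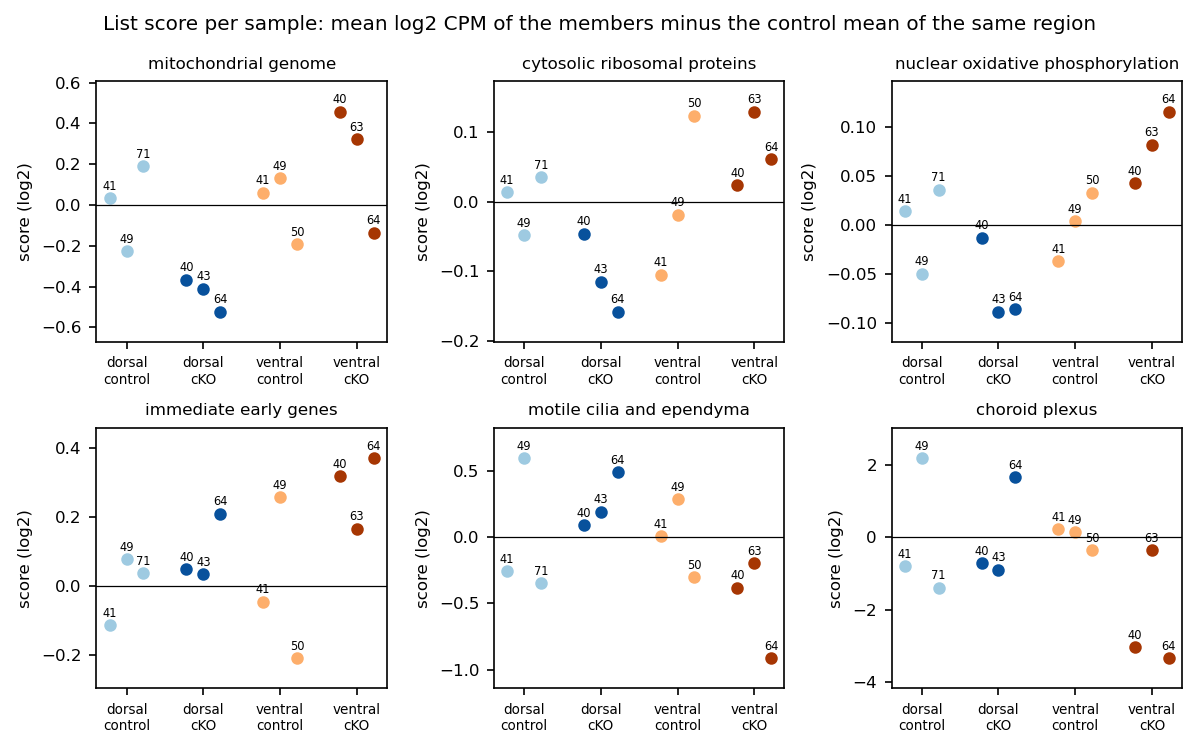
Score of 6 gene lists per sample (vertical axes, log2), the mean log2 CPM of the members minus the control mean of the same region, with the number of each sample above its point. The dorsal cKO samples lie below all dorsal controls for the mitochondrial genome (-0.366 to -0.523), and choroid plexus scores are high in dorsal control 49 (2.187) and dorsal cKO 64 (1.658) and low in ventral cKO samples 40 and 64 (-3.037 and -3.342).

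Lists of tissue next to the hippocampus had the lowest medians. All 23 tested choroid plexus genes had a regional difference below 0 (median -1.012, dorsal -0.493, ventral -1.815). Of these 0 had an unadjusted p under 0.05, against 2.95% of all genes in that direction. Enpp2, a secreted phospholipase, was at 254.7, 1300.2 and 208.9 CPM in the dorsal controls against 324.6, 277.6 and 939.0 CPM in dorsal cKO, and at 998.7, 955.1 and 750.5 CPM in the ventral controls against 129.1, 564.5 and 113.7 CPM in ventral cKO. Its ventral groups did not overlap, and 1 dorsal sample of each genotype was high (-1.54 ± 0.90). Ttr, the transthyretin gene of the choroid plexus, followed the same samples (-1.34 ± 1.96). The list median was 0.236 without dorsal cKO 64 and -3.594 without dorsal control 49. Without dorsal control 49, dorsal cKO 64 and ventral cKO 63 it was -4.249, and edgeR then called 38 genes, of which 35 lay below 0 and 16 belonged to this list. Since these 3 samples were picked for their choroid plexus level, and the ventral controls are the only samples left with a high level, that selection fixes the size of the list's value and the calls of its members.

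Genes of motile cilia, which line the ventricle on ependymal cells, had a median of -0.667 (dorsal effect 0.18, ventral effect -0.506). Of 22 tested, 20 lay below 0, and 4 of these had an unadjusted p under 0.05. Over all 16414 genes 8352 lay below 0, and 2.95% did so at that p. Tmem212 was at 2.62, 4.64 and 2.65 CPM in the dorsal controls against 6.80, 6.56 and 3.78 CPM in cKO, and at 3.79, 6.53 and 2.51 CPM in the ventral controls against 3.77, 3.61 and 1.20 CPM in cKO. Both regions' groups overlapped (-1.35 ± 0.54). Spag17 of the ciliary axoneme was at -1.46 ± 0.55 and Ccdc153 at -0.74 ± 0.31, the latter at -0.41 without ventral control 49 and -0.24 from run 1 alone. The cilia median was -1.184 without dorsal control 49 and -0.435 without dorsal control 71. The choroid plexus score moved with the ventral genotype in the same direction, and with it as a covariate the cilia median was -0.277 and the meningeal median -0.142 in place of -0.496. The meningeal median was -0.828 without ventral cKO 63 and -0.28 without ventral cKO 64. Without the 3 samples named above the cilia and meningeal medians were -1.103 and -1.076. Thalamus markers had a median of -0.194, with Prkcd, a protein kinase C of thalamic relay neurons, at -0.70 ± 0.27 and overlapping groups in both regions. The part of dissection in these lists was not tested.

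Lead genes were also fitted with a choroid plexus term and without the 3 samples, the latter a setting in which choroid plexus level differs more by ventral genotype, not less. With the choroid plexus score as a covariate Cadm4 was at 0.91, Lrpprc at 0.83, Mt3 at 0.93, Oxtr at -1.545 and the mitochondrial median at 0.541, and without the 3 samples they were 1.085, 0.72, 1.10, -1.675 and 0.594. The edgeR adjusted p values with the covariate were 0.354 for Cadm4 and 0.877 for Lrpprc, Mt3 and Oxtr. All 24 lead genes kept their direction in every alternative in which they had a value. They were chosen by the lowest p in these samples and the alternatives reuse the same counts, so the choice favours a kept direction. The count of calls did not: leaving out 1 sample gave 0 to 4 genes, all above 0, with 4 without dorsal cKO 40 (Gm2830, Hipk4, Lasp1 and Usp11), 3 without ventral control 41 and 1 (Cadm4) without dorsal cKO 64. With no low-count filter edgeR called 13, all above 0, and 5 of them were DESeq2 calls (Lrpprc, Mt3, Scg2, St3gal5 and Usf2).

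**Figure D5:**
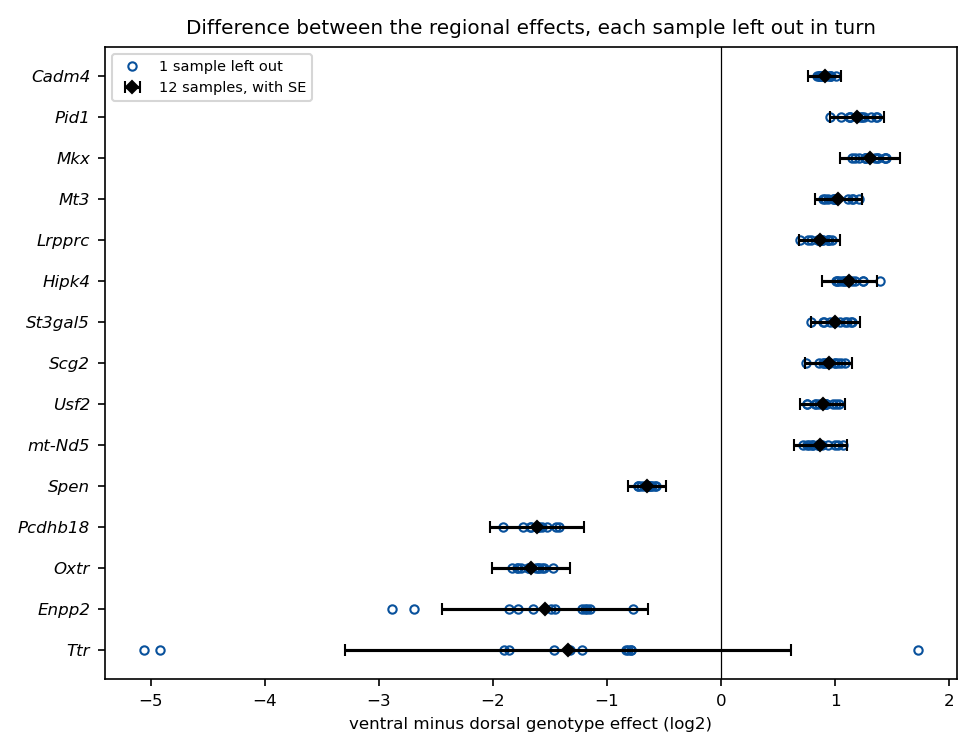
Regional difference (horizontal axis, log2) of 15 genes, with the estimate from 12 samples and its SE as a diamond with a bar and the estimates with 1 sample left out as open circles. The genes from Cadm4 to mt-Nd5 stay above 0 and Spen, Pcdhb18 and Oxtr below 0 in every case, while Ttr runs from -5.06 to 1.73 and Enpp2 from -2.88 to -0.77.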

How the data were processed

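The authors trimmed, aligned and counted 3′ end reads with cutadapt, HISAT2 and featureCounts on GRCm38, per the submitters' processing notes, which also name edgeR; versions and the strand setting are not given in the sources used here. The deposited tables, 1 per region, hold raw counts per run, normalised signal, log2 fold changes, likelihood ratio scores and p-values. Raw counts of the 35 runs were summed per sample, and the tables were joined on gene identifier (26787 shared genes). From these counts edgeR 4.0.16 in R 4.3.3 (TMM scaling, low counts filtered by group, 16414 genes) gave 1 quasi-likelihood fit over 12 samples in 4 groups, with Benjamini-Hochberg adjustment and a threshold of 0.05. DESeq2 1.42.0, limma-voom 3.58.1, other scalings and filters, single runs and left-out samples were alternatives. Named genes were the 12 lowest p in each direction, the 4 lowest per list, the 4 lowest in both regions with opposite and with the same sign, the Tet genes and Ttr; others are said to be chosen after their values were seen. Members and lists were chosen with earlier results of these data known. The labels do not state that samples of a group are separate animals, so p-values measure only the spread between these samples. Scripts were tested on simulated data. Coordinates are from GENCODE on GRCm38.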

Additional observations from a re-analysis of the deposited data

Results flagged for a closer look

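In 4 gene lists every cKO sample of one region had moved one way from its control mean and every cKO sample of the other region the opposite way. The score is the mean log2 CPM of the list relative to the controls of the same region, and the value is the ventral minus the dorsal change in it. It was -0.757 for motile cilia and ependyma, where the dorsal cKO samples were at 0.094, 0.194 and 0.492 and the ventral ones at -0.381, -0.193 and -0.915. It was -0.296 for thalamus markers, with 0.185, 0.148 and 0.136 against -0.246, -0.077 and -0.098. It was 0.177 for cytosolic ribosomal proteins, with -0.046, -0.115 and -0.158 against 0.023, 0.129 and 0.061. It was 0.143 for nuclear oxidative phosphorylation, with -0.013, -0.089 and -0.086 against 0.043, 0.082 and 0.116. These differences between the regions were not tested, and control samples of the same lists overlapped the cKO samples in at least 1 region.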

How the results depend on the processing

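The number of genes with a called regional difference was 0 in the edgeR fit, 34 with DESeq2, 13 without a filter on low counts, 1 from run 2 alone, 38 without dorsal control 49, dorsal cKO 64 and ventral cKO 63, and 0 to 4 with single samples left out. Counting runs as separate libraries gave 1033, by construction, since runs of 1 sample then count as replicates; it gave 128 for the average, 245 for the dorsal and 976 for the ventral effect. Without the 3 samples the average effect had 20 calls and the ventral effect 76. The dorsal effect had 1 call with DESeq2. The ventral effect had 9 with DESeq2, 1 without a filter, 1 from run 2 alone, 1 with the choroid plexus covariate and 0 to 6 with single samples left out (6 without ventral control 41). For the others the cause was not tested. With the number in the titles as a replicate block, edgeR called 0 regional differences and limma-voom 0; same-numbered samples correlated at 0.035, 0.106, 0.076 and -0.107, and none of the 4 dorsal samples with a shared number correlated best with its own number among the ventral samples; the reverse was not run. Among named genes 104 of 113 kept their direction throughout, and of the 25 list medians 11 did, with 98 of 674 values of the other sign. Naming genes by a low p in these same samples favours a kept direction. Values of the other sign were, from run 2 alone, Tet1 0.009, Tet2 0.026, Tet3 0.152, Ttr 1.648, Gm48015 0.491, Pde10a 0.033 and Slc39a13 -0.021; from run 1 alone Pde10a 0.047 and Slc39a13 -0.144; from run 3 alone Adcyap1 -0.324; with the fixed replicate block Adcyap1 -0.059 and Gm48015 0.151; with the covariate Ttr 0.181, Gm48015 0.034 and Pde10a 0.023. Slc39a13 was at -0.054 by library totals, -0.003 without a filter and -0.110 without the 3 samples. With single samples left out Adcyap1 ran from -0.016 to 0.196, Folr1 from -3.674 to 0.236, Gm48015 from -0.15 to 0.043, Pde10a from -0.104 to 0.063, Slc39a13 from -0.056 to 0.112, Tet2 from -0.172 to 0.013, Tet3 from -0.246 to 0.033 and Ttr from -5.064 to 1.729.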

Other observations

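The other lists are given by their medians, beside -0.006 for all genes. GABAergic interneuron markers had a median regional difference of 0.099, CA2 and CA3 pyramidal markers -0.073, interferon response genes -0.05, adult neurogenesis genes -0.14, thyroid hormone and retinoid genes -0.028 and glucocorticoid receptor targets -0.001. The 5 tested haemoglobin and red cell genes had 0.26, with 0 at an unadjusted p under 0.05 (7.96% of all genes in either direction). With 5 genes that count is no result about the group.

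Genes of salivary gland type were counted almost only in ventral control 41, and were chosen here after their values were seen. Dcpp3 had 556 of its 560 counts in that sample, Dcpp2 722 of 725, Dcpp1 151 of 153 and the mucin gene Muc19 301 of 302. All 30 counts of Scgb2b27 and all 12 of Bpifa2 were there too. Ventral control 41 also had the highest total (15900323 counts), and without it 3 regional differences and 6 ventral effects passed the test. Leaving out dorsal cKO 40 gave 4 regional differences. Any link between the salivary counts and these calls was not tested.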
